A study of Mus musculus with 24 samples.

Results

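Embryoid bodies made from mouse embryonic stem cells treated to remove the chromatin reader BRD2 were compared between day 3 and day 4 of culture. The members are 6 of the 24 RNA-seq libraries of the series, chosen by their labels: 3 from day 3 and 3 from day 4, all from cells given IAA (indole-3-acetic acid, an auxin). The cells are the V6.5 mouse embryonic stem cell line carrying a BRD2 degron, an engineered tag through which auxin causes the protein to be destroyed. All cultures of the series, controls included, received doxycycline (Dox) at 1 µg/ml for 18 h, and the depleted groups also received IAA at 500 µM for 24 h, per the labels. Stem cells were kept in 2i and LIF, and embryoid bodies in medium that lacked LIF. Not stated in the labels are the time in embryoid body culture at which IAA was added, whether the line is 1 clone, and whether the samples of a group are separate cultures, so p-values measure only the spread between these samples, which may be technical. Of 35742 genes, 21232 had a mean of at least 1 normalized count over these libraries and were tested. The same step in cells with Dox alone, 3 libraries on each day, is set beside it.

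BRD2 belongs to the BET family, whose bromodomains bind acetylated histones and help RNA polymerase II begin and continue transcription. Embryoid bodies are floating aggregates in which stem cells leave pluripotency and form early embryonic cell types. Between these days such cultures are known for the first genes of the primitive streak, the region of the embryo where mesoderm and endoderm arise under Wnt, Nodal, FGF and BMP signals. T (brachyury) and Eomes are T-box transcription factors that act at the head of this program.

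The total was 7819522 to 9416260 reads on day 3 and 9007143 to 10598075 on day 4, and mitochondrial genes took 1.25 to 1.26% and 1.16 to 1.20% of them. Brd2 itself stood at 6033, 5643 and 5619 normalized counts in day 3 libraries 1, 2 and 3 and at 3795, 4463 and 4387 on day 4. It fell by 0.45 on the log2 scale (SE 0.056, limma adjusted p = 1.0e-05), and with Dox alone it stood at 4128, 4551 and 4582 and then 3057, 3126 and 2862. Its RNA was present in every library, and since the degron acts on the protein, RNA does not show whether BRD2 was removed. The related BET gene Brd3 did not pass the test, with a log2 change of -0.094 ± 0.051 (SE, n = 3 libraries a day).

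From day 3 to day 4, 6679 genes (31.5% of those tested) changed at a limma adjusted p under 0.05. Of these, 3404 rose (16.0%) and 3275 fell (15.4%), and the change was at least 2-fold for 749 (3.53%) and 655 (3.08%). Changes below are on the log2(normalized count + 1) scale with their SE, which understates the change of low genes, and a gene is said to rise or fall only where it passed this test. The 12 largest rises among genes with a mean of at least 50 on the higher day and no overlap between the days were T, Acta2, Fos, Fgf8, Fosb, Nrcam, Clic5, Irf2, Trim67, Prox1, Bmp7 and Acta1. They include streak regulators, immediate early genes, which answer signals within minutes, and the actins of muscle. No overlap was a condition for naming these genes and the largest falls, so it adds nothing to the test of their change. It held for 43.6% of all genes tested.

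T had the largest rise. It stood at 7.74, 8.70 and 14.9 normalized counts in day 3 libraries 1, 2 and 3, and at 39.8, 322 and 1556 in day 4 libraries 1, 2 and 3. All day 4 libraries lay above all day 3 libraries, yet on day 4 library 3 held 38.2 times the level of library 1 with 1 added to each value. The change was 4.63 ± 0.77 (adjusted p = 1.9e-04). Eomes was at 54.2, 59.6 and 53.1 on day 3 and 67.3, 179 and 519 on day 4, a change of 1.71 ± 0.43 (adjusted p = 0.0057). Fgf8, a growth factor of the streak, was at 16.8, 17.4 and 24.4 and then 75.8, 197 and 540.2, a change of 3.32 ± 0.44 (adjusted p = 1.8e-05). For both the days did not overlap, and day 4 library 1 was the lowest and library 3 the highest.

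**Figure D1:**
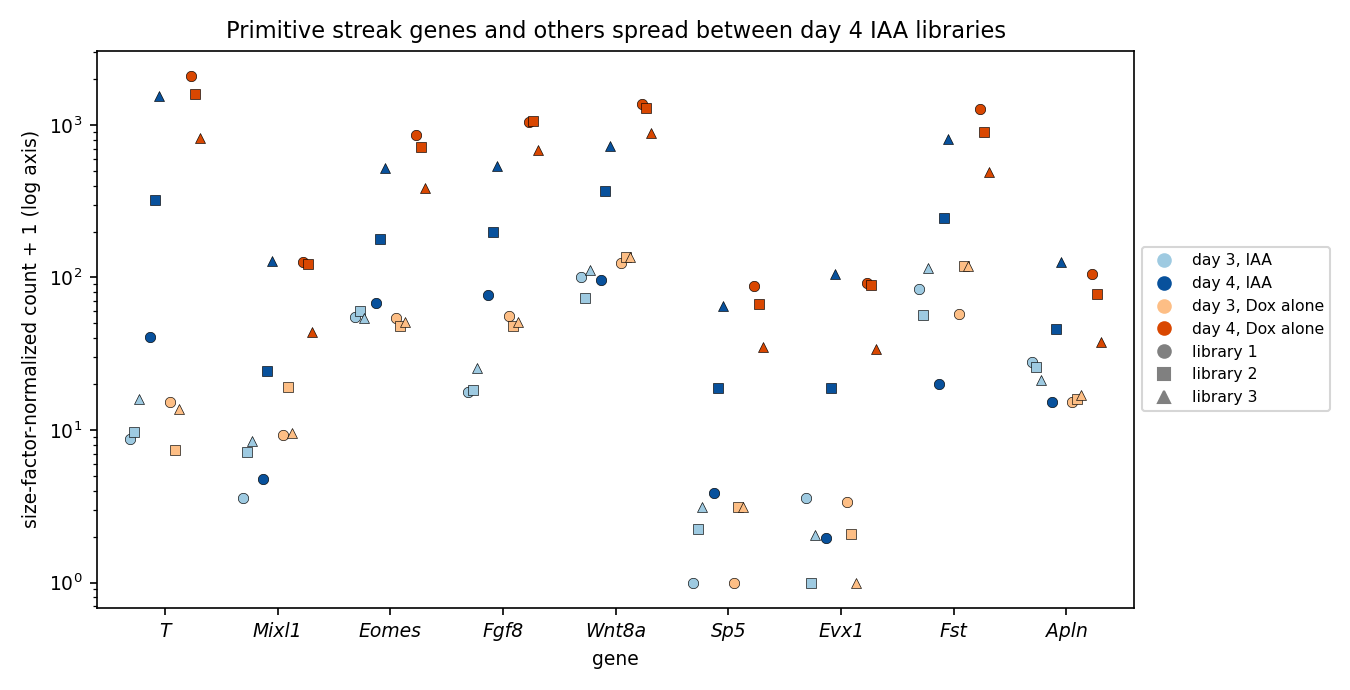
Normalized counts of primitive streak genes in each day 3 and day 4 library, by treatment, on a log axis. In day 4 IAA libraries, T ranges from 39.8 to 1556 and library 1 is the lowest for T, Eomes and Fgf8.

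Sp5 and Sp8, zinc finger factors that act with Wnt signals, also rose. Sp5 went from 0, 1.24 and 2.12 to 2.84, 17.9 and 64.3 normalized counts (3.13 ± 0.77, adjusted p = 0.0044), and Sp8 from 37.4, 37.3 and 49.9 to 73.9, 167 and 222 (1.74 ± 0.28, adjusted p = 1.4e-04). The days did not overlap for either gene. T, Eomes, Fgf8, Sp5 and Sp8 passed the test under each of the 16 alternatives run. Wnt pathway output is often read from TCF and LEF factors, which bind DNA around the core CTTTGA. The promoters of T and Sp5, genes that moved together here, are shown because they hold this core. Each is the 250 bases before the annotated start, upstream of the transcript, from the RefSeq promoter table on GRCm38.p6, with CTTTGA on either strand (TCAAAG on the other) in capitals. T lies at chr17:8434173-8434422 and Sp5 at chr2:70474673-70474922, both on the plus strand.
T: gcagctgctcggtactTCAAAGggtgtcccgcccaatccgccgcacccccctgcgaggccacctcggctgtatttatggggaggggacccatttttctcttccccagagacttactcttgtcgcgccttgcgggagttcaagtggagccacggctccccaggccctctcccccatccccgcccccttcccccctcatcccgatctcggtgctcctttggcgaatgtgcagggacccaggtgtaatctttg
Sp5: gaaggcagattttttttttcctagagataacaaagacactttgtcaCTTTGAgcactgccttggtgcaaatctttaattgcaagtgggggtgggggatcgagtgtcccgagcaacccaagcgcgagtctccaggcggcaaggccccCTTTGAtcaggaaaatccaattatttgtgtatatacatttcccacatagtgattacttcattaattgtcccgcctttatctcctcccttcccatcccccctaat
The match in T lay 234 bases before the start, and those in Sp5 lay 204 and 104 bases before it. Of 17 streak genes, 14 were in the table, and 5 of them had a match. Among all 32851 windows of this length, 13.8% had one. A match is a description of the sequence and not a measured binding site.

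The streak list has 17 genes, of which 16 were tested. Of these, 8 rose, 1 fell and 7 did not pass, while 16.0% of all genes tested rose and 15.4% fell. The median change was 1.73 against 0.019 for all genes. The days did not overlap for 9 of the 16, against 43.6% of all genes tested. The organizer factor Gsc had no read on day 3 and 3.79, 2.24 and 18.04 normalized counts on day 4, at least 6.75-fold higher against a floor of 3 reads over the group. The homeobox genes Evx1 (3.01 ± 0.97, adjusted p = 0.024) and Lhx1 (2.37 ± 0.70, adjusted p = 0.016) also rose. Evx1, at 0.948, 17.9 and 105 on day 4, was within the day 3 range in library 1. Without day 4 library 3 the calls of Gsc (adjusted p = 0.061), Evx1 (0.178) and Lhx1 (0.131) were lost, and 5 of 15 members rose, with a median of 0.97. The single fall was lost without day 3 library 2 or 3 and without day 4 library 2. Without day 3 library 3, 6 members rose, and without day 4 library 1, 10 did. The call of Evx1 was also lost without day 3 library 2 (0.111) or 3 (0.076) and without day 4 library 2 (0.078), and that of Lhx1 without day 3 library 1 (0.087) or 3 (0.085). Mixl1, a homeobox gene of mesendoderm, was at 2.58, 6.21 and 7.43 and then 3.79, 23.5 and 126 and missed the threshold (adjusted p = 0.054), but passed under 9 of 16 alternatives. Among these were edgeR (3.12, adjusted p = 0.010), DESeq2 (3.23, adjusted p = 0.044), TMM scaling (2.01, adjusted p = 0.037), a replicate block (adjusted p = 0.0074) and leaving out day 4 library 1 (3.21).

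The day 4 libraries differed widely from each other in these genes. Set against the day 3 mean, the median log2 level of the streak list was -0.16 in day 4 library 1, 1.56 in library 2 and 3.82 in library 3, while the median of all genes was 0.02 to 0.03 in each. With Dox alone the same medians were 2.98, 2.92 and 1.80. Of 10979 genes with a mean of at least 50 on day 4, 76 had a range of at least 2-fold across the 3 IAA libraries, against 32 of 10918 on day 3 with IAA, and 6 and 19 with Dox alone on day 3 and day 4. A range of at least 4-fold was seen for 9 genes in the day 4 IAA libraries and for 0 in each other group. These were Fst, T, Mixl1, Apln, Eomes, Wnt8a, Fgf8, Sall3 and Klhl14. Of the 76, 49 were lowest in library 1 and highest in library 3, and 18 were the reverse. Sequencing depth in these libraries was similar, and the chi-square of their reads per degree of freedom was 3.40 for libraries 1 and 2, 4.90 for 1 and 3 and 1.92 for 2 and 3, so none was a repeat of another.

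**Figure D2:**
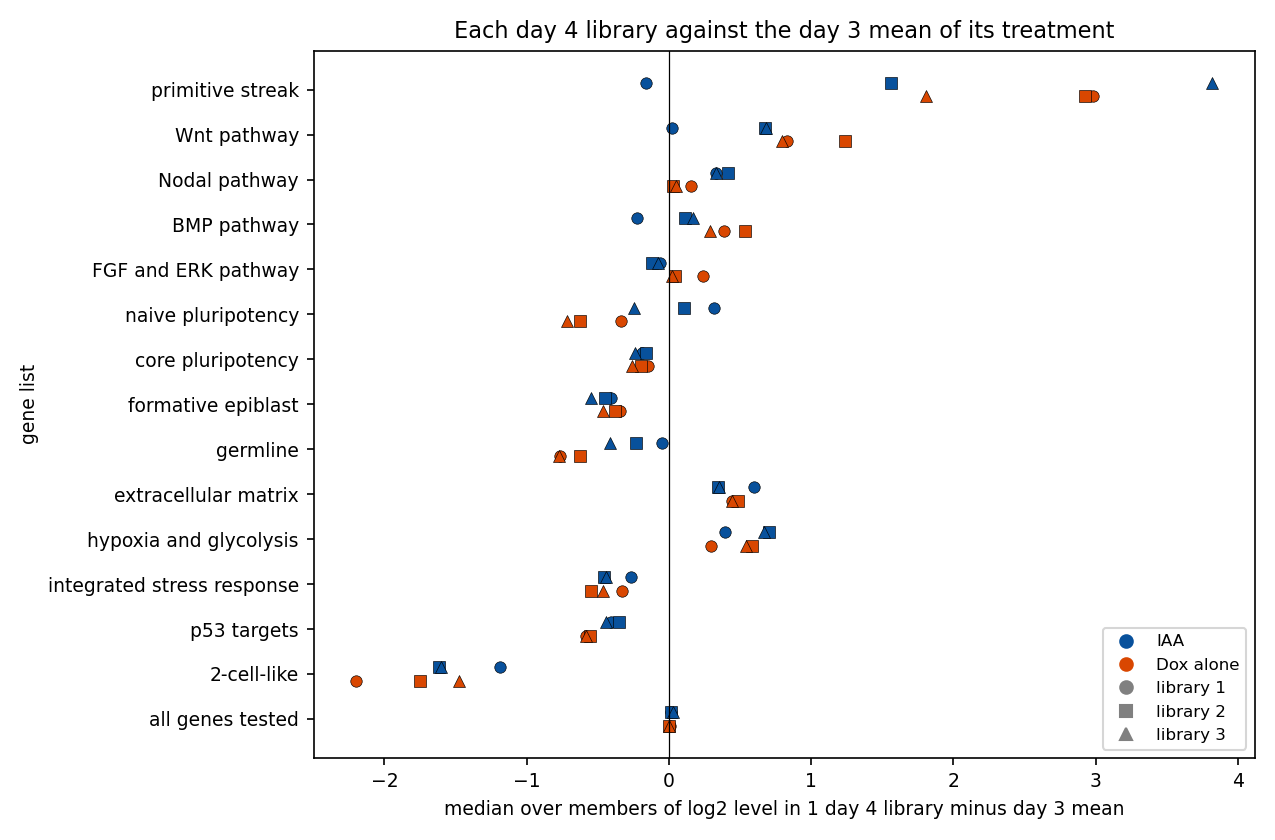
Median log2 level of a selection of the gene lists, and of all genes tested, in every day 4 library, minus the day 3 mean of the same treatment. The streak list lies at -0.16, 1.56 and 3.82 in the IAA libraries, while the median of all genes stays at 0.02 to 0.03.

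Fst (follistatin, which binds activins) was at 82.6, 55.9 and 115 on day 3 and at 18.95, 243 and 811 on day 4. Library 1 lay below every day 3 library and libraries 2 and 3 above, and the change did not pass (0.95 ± 0.79, adjusted p = 0.405). It passed by edgeR (2.02, adjusted p = 0.026) and without day 4 library 1 (2.44), and turned negative without day 4 library 3 (-0.23). Klhl14 went the other way, at 18.1, 18.6 and 20.2 and then 102, 62.7 and 24.8, highest in library 1 (1.47 ± 0.36, adjusted p = 0.0044). Sall3 stood at 22.7, 50.3 and 129 on day 4 and did not pass (0.19 ± 0.42), with a negative change without day 3 library 2 (-0.15) or day 4 library 3 (-0.44). Apln, the ligand apelin, was at 27.1, 24.8 and 20.2 and then 14.2, 44.8 and 125, and passed only without day 4 library 1, at 1.61. Its receptor gene Aplnr rose, from 1.29, 0 and 1.06 to 2.84, 10.1 and 60.9 (3.04 ± 0.76, adjusted p = 0.0052).

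Day 3 libraries also differed among themselves. The p53 target Cdkn1a, an inhibitor of cell division, was at 312, 215 and 525 on day 3, highest in library 3, and at 122, 125 and 138 on day 4. Plk2, a polo-like kinase and p53 target, was at 284, 200.04 and 470.3 and then 70.1, 49.2 and 60.9. The days did not overlap for either, and both passed the test: Cdkn1a fell by 1.35 (adjusted p = 8.5e-05) and Plk2 fell by 2.31 (adjusted p = 6.6e-07). Hypoxia gene Ankrd37 was instead highest in day 3 library 2, at 47.7, 98.2 and 34.0 in libraries 1, 2 and 3. In the p53 target list 9 genes fell without day 3 library 3 and 13 without day 3 library 2. The reason for this spread was not tested.

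Wnt pathway genes were read by role. Of 18 tested, 7 rose and 1 fell, against 16.0% and 15.4% of all genes, and the list's median was 0.67. That median was 0.41 without day 4 library 3 and 0.22 with a filter at a mean of 10, and against the day 3 mean the list's median was 0.02 in day 4 library 1, 0.68 in library 2 and 0.68 in library 3. Without day 4 library 1, 2 members fell. Among secreted ligands and their handling, Wls, which carries Wnt proteins to the surface, rose from 294, 309 and 355 to 759, 807 and 863 (1.34 ± 0.082, adjusted p = 6.4e-09), with no overlap. The streak ligand Wnt8a was at 99.4, 72.1 and 111 and then 94.8, 367 and 724, so library 1 stayed within the day 3 range (1.65 ± 0.44, adjusted p = 0.0083). That call was lost without day 3 library 2 (adjusted p = 0.056). Porcn, the enzyme that lipidates Wnt proteins, did not pass (0.018 ± 0.13). The feedback genes Axin2 (1.03 ± 0.16, adjusted p = 1.1e-04) and Rnf43 (1.24 ± 0.20, adjusted p = 1.6e-04) rose, as did the receptor gene Fzd10, which is outside the list (1.73 ± 0.32, adjusted p = 5.0e-04). Ccnd1, a cyclin and known Wnt target, was the member that fell (-0.45 ± 0.066, adjusted p = 6.0e-05).

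In the Nodal pathway, 9 of 13 rose and 3 fell, against 16.0% and 15.4% of all genes, and the list's median was 0.35. The ligand Nodal rose from 308, 291 and 297 to 459, 604 and 759 (0.99 ± 0.13, adjusted p = 1.3e-05), and the days did not overlap. Its receptor gene Acvr1b (0.48 ± 0.08) and the signal transducer Smad3 (1.08 ± 0.082, adjusted p = 6.0e-08) rose too. The secreted antagonists went in opposite directions: Lefty1 rose (0.31 ± 0.082, adjusted p = 0.0083) and Lefty2 fell (-0.68 ± 0.13, adjusted p = 5.3e-04). The call of Lefty1 was lost without day 3 library 2 (adjusted p = 0.061) or day 4 library 2 (0.064). Pcsk6, a convertase that cleaves Nodal, fell (-0.77 ± 0.13, adjusted p = 1.9e-04). The third fall, Gdf3, lost its call under 5 of 16 alternatives. With 1 library left out, 6 to 8 genes of the list rose and 2 or 3 fell. By edgeR and by DESeq2, 7 rose.

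FGF and ERK genes split, with 6 of 18 rising and 8 falling (median -0.088). The receptor gene Fgfr1 rose (0.50 ± 0.067, adjusted p = 2.5e-05). Spry4, an inhibitor that ERK signalling induces, was at 621, 555 and 759 and then 136, 192 and 235 and fell by 1.80 (adjusted p = 1.7e-07). Etv4, an ETS factor induced the same way, was at 625, 588 and 637 and then 149.7, 198 and 265 and fell by 1.63 (adjusted p = 2.2e-07). For both the days were far apart, and among day 4 libraries library 1 was the lowest. In the BMP pathway 2 of 16 rose and 3 fell, near the shares of all genes tested (16.0% rose and 15.4% fell). The ligand Bmp7 rose from 30.97, 34.8 and 16.98 to 211, 166 and 149.995 (2.67 ± 0.23, adjusted p = 1.9e-07) and the inhibitor Smad6 rose by 0.72, while the target Id2 fell by 0.66 (adjusted p = 0.0037). Without day 3 library 2 or day 4 library 2, 1 BMP gene fell. Of 12 Notch genes 4 rose and 0 fell by limma (1 at an unadjusted p under 0.05, 0 by edgeR or DESeq2). The rises were the receptors Notch1 (0.50 ± 0.082), Notch2 (0.50 ± 0.067) and Notch3 (0.83 ± 0.053, adjusted p = 1.0e-08) and the target Hes1 (1.14 ± 0.13, adjusted p = 3.8e-06). Of 12 retinoic acid genes 3 rose and 2 fell, among them Dhrs3, a retinal reductase (1.66 ± 0.18, adjusted p = 2.0e-06).

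The contractile and immediate early genes named here were higher in each day 4 library than in any on day 3. They are not a list set in advance, and some were chosen after their values were seen. The lateral and cardiac list, which holds Actc1 and other contractile genes, had 3 rises among 17 genes tested. Of all genes tested, 16.0% rose. Acta2, smooth muscle actin, was at 6.45, 9.94 and 1.06 and then 114, 73.8 and 67.7 (3.93 ± 0.46, adjusted p = 5.3e-06). Acta1, skeletal actin, was at 19.4, 17.4 and 20.2 and then 169.6, 97.3 and 116 (2.65 ± 0.21, adjusted p = 1.2e-07). Both were highest in day 4 library 1, the library with the least T. Cardiac actin Actc1 rose by 2.45 (adjusted p = 1.5e-04), the myosin light chain Myl3 by 2.57 (adjusted p = 1.4e-05), and troponins Tnnc1 and Tnnt1 by 2.23 and 1.18. Tpm1, a tropomyosin with far more reads, went from 1821, 2028 and 1763 to 5416, 4865 and 5168 (1.46 ± 0.057, adjusted p = 8.9e-11).

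Fos and Fosb, subunits of the AP-1 transcription factor, rose as well. Fos was at 23.2, 24.8 and 54.1 and then 228, 341 and 555 (3.43 ± 0.29, adjusted p = 1.8e-07), and Fosb at 7.74, 12.4 and 41.4 and then 91.9, 149.9 and 267 (3.19 ± 0.43, adjusted p = 2.7e-05). With IAA, library 3 was the highest for both genes within each day. Their partners Jun (1.61 ± 0.11, adjusted p = 3.1e-08) and Junb (0.84 ± 0.16, adjusted p = 5.8e-04), the matricellular genes Ccn1 (1.90 ± 0.094) and Ccn2 (1.29 ± 0.073), and Gadd45b (2.23 ± 0.22) rose too. Contractile and immediate early genes are known targets of the factor SRF, which binds the CArG box. The promoters of Acta1, Actc1 and Myl3 are shown because they were the 3 of 7 contractile genes with this motif in the 250 bases before the start. The motif is in capitals, both strands were searched, and each sequence is written on the gene's strand. Acta1 lies at chr8:123894776-123895025 (minus strand), Actc1 at chr2:114052876-114053125 (minus strand) and Myl3 at chr9:110763428-110763677 (plus strand), on GRCm38.p6.
Acta1: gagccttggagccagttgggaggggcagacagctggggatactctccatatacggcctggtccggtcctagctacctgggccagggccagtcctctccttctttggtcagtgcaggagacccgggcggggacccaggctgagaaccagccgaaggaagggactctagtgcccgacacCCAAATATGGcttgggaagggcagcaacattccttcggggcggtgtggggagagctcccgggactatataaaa
Actc1: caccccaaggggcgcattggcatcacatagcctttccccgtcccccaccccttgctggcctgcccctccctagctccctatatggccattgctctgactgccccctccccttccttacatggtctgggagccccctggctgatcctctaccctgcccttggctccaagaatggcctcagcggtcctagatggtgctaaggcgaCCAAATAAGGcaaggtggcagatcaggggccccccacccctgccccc
Myl3: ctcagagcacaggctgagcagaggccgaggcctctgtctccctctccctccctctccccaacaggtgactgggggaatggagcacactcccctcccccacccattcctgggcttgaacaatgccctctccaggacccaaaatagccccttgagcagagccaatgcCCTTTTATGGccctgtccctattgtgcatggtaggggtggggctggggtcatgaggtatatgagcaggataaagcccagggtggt
The matches lay 73, 47 and 85 bases before the start. Of all windows of this length, 1.47% had one. The 7 genes searched are the contractile genes named above, all of which rose, so the count is a description and not a test. Promoters of the immediate early genes were not searched. A match is not a measured binding site, and a part of SRF in these changes was not tested. The gene for SRF itself rose slightly (0.20 ± 0.064, adjusted p = 0.025), a call lost without day 3 library 3 (adjusted p = 0.091) or day 4 library 2 (0.148), with TMM scaling (0.070) and by DESeq2 (0.063). Fibroblast markers, which share Acta2, were low: their summed level was 246 to 357 normalized counts on day 3 and 441 to 671 on day 4 over 9 genes, and 3 to 5 of them were at 0 in each library, Lum, Postn and Fap in all 6. Their part in the actin rise was not tested.

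**Figure D3:**
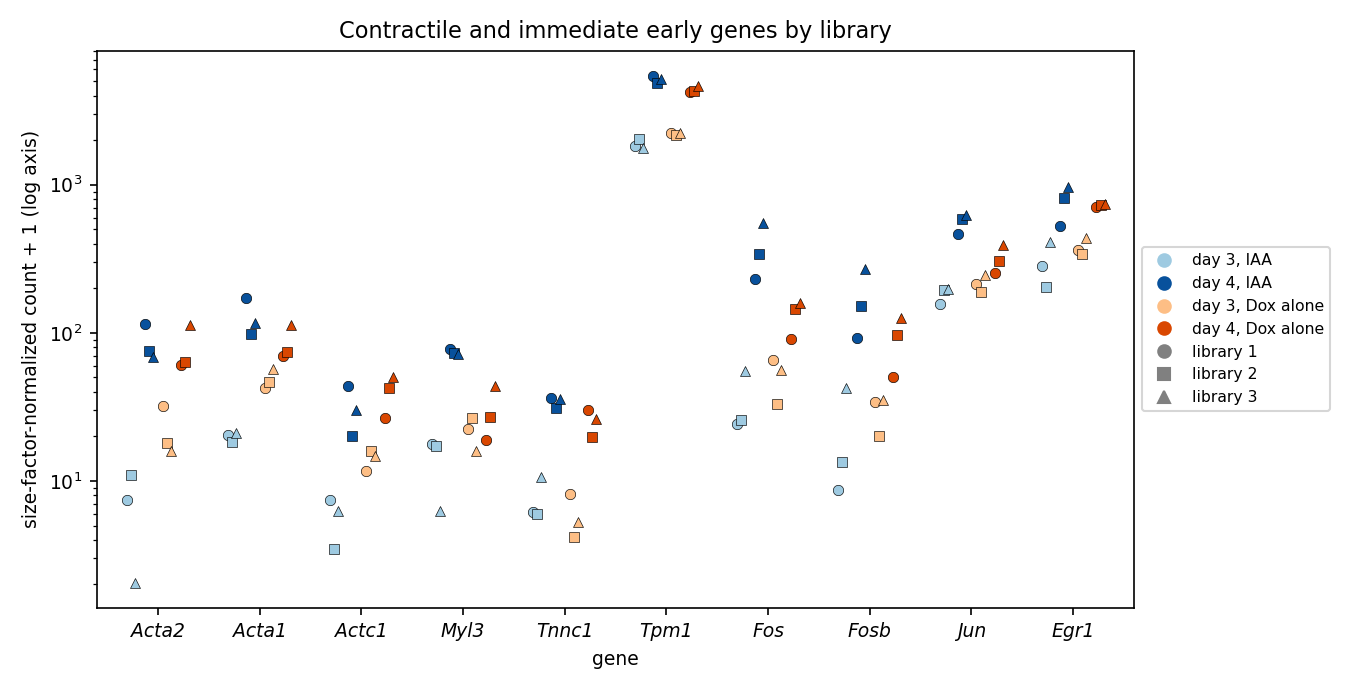
Normalized counts of contractile and immediate early genes in each library, on a log axis. With IAA, Acta1 moves from 17.4 to 20.2 on day 3 to 97.3 to 169.6 on day 4, and Fos is highest in library 3 on each day.

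Pluripotency genes moved in both directions, while 16.0% of all genes tested rose and 15.4% fell. Nanog rose from 1203, 1603 and 1149.7 to 3705, 3632 and 4115 (1.55 ± 0.091, adjusted p = 4.0e-09), and Tbx3 rose too (1.38 ± 0.22, adjusted p = 1.3e-04). Pou5f1, which encodes OCT4, went from 7226, 6626 and 7243 to 4371, 4943 and 5245 and fell by 0.54 (adjusted p = 2.5e-06). In both cases the days did not overlap. Among 14 naive genes 4 rose and 3 fell, among 12 core genes 1 rose and 6 fell, and among 12 formative epiblast genes 3 rose and 7 fell. Without day 4 library 1, 2 naive genes rose. The core gene that rose lost its call under 9 of 16 alternatives. The falls took in Dppa4 (-1.30 ± 0.089), Sox2 (-0.39 ± 0.082), Nr0b1 (-1.33 ± 0.23), the DNA methyltransferases Dnmt3a (-0.97 ± 0.05, adjusted p = 1.2e-09) and Dnmt3b (-0.80 ± 0.043), and the formative factors Tcf15 (-1.55 ± 0.12) and Pou3f1 (-0.82 ± 0.067). Summed over 12 core genes the level was 48522 to 51057 on day 3 and 38373 to 43092 on day 4, with no gene at 0. In bulk RNA, fewer cells of a type and less RNA per cell cannot be told apart.

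**Figure D4:**
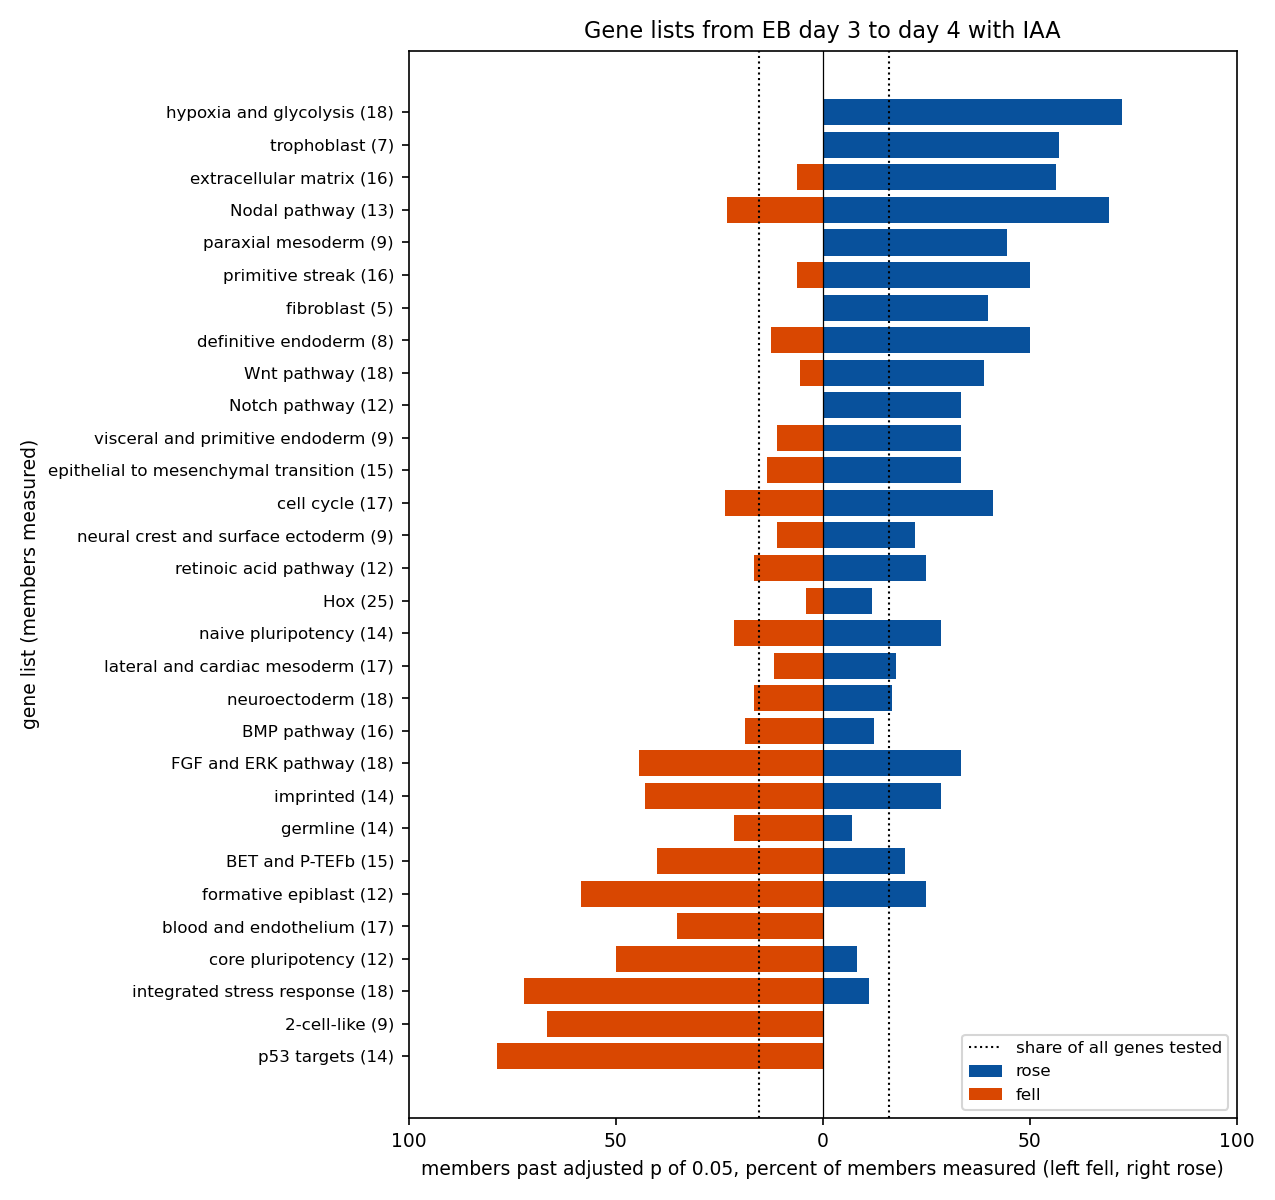
Members of each gene list that rose (right) or fell (left) between day 3 and day 4 with IAA, as a percentage of members measured. Dotted lines mark the share of all genes tested. Hypoxia and glycolysis genes rose in 13 of 18 cases, and p53 targets fell in 11 of 14.

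The largest falls spanned unrelated functions. They included Slc35d3, Pcnx2, Aoah, Slc7a11, Ankrd35, Tubb3, Zfp365, Kcnh3, Nlrp4f, Plk2 and Cend1. Slc35d3, of the nucleotide sugar transporter family, went from 143, 127 and 133 to 18.01, 12.3 and 12.4 (-3.17 ± 0.21, adjusted p = 1.3e-08). Tubb3, a neuronal tubulin, went from 1217, 1088 and 1039 to 205, 219 and 164 (-2.51 ± 0.10, adjusted p = 8.9e-11). In both the day 4 libraries lay well under the day 3 libraries. Myc (-1.42 ± 0.21, adjusted p = 5.9e-05) and Mycn (-0.96 ± 0.082, adjusted p = 2.1e-07), growth-promoting transcription factors, also fell.

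Stress and metabolism lists moved largely one way, while 16.0% of all genes tested rose and 15.4% fell. Of 18 integrated stress response genes 13 fell and 2 rose (median -0.33). Slc7a11, the cystine importer subunit, went from 58.1, 45.97 and 70.1 to 12.3, 8.95 and 5.64 (-2.60 ± 0.30, adjusted p = 5.1e-06), and the serine synthesis enzyme Psat1 fell by 0.70 (adjusted p = 5.7e-08). Of 14 p53 targets 11 fell and 0 rose (median -0.41), among them Ccng1 (-1.06 ± 0.13, adjusted p = 1.2e-05) and Phlda3 (-1.20 ± 0.14). Of 18 hypoxia and glycolysis genes 13 rose and 0 fell (median 0.58). With 1 library left out, 9 to 13 p53 targets fell and 11 to 16 hypoxia and glycolysis genes rose. Both counts of 0 by limma were also 0 at an unadjusted p under 0.05 and by edgeR and DESeq2. The glucose transporters Slc2a3, from 6596, 8929.8 and 5456 to 18465, 21786 and 20300.1 (1.56 ± 0.11, adjusted p = 3.7e-08), and Slc2a1 (1.01 ± 0.081), the collagen hydroxylase P4ha1 (1.66 ± 0.15), and Ndrg1, outside the list (2.18 ± 0.26), rose. Of 9 genes of the 2-cell-like state 6 fell, with Zscan4c at 69.7, 104 and 105 and then 20.8, 29.1 and 16.9 (-2.02 ± 0.23, adjusted p = 5.0e-06). The Zscan4 copies are near-identical, so reads may be split among them. Of 16 matrix genes 9 rose, led by the basement membrane genes Lamb1 (0.97 ± 0.054, adjusted p = 2.2e-09) and Hspg2 (0.98 ± 0.073), and 1 fell, the proteoglycan gene Vcan (-1.32 ± 0.22). Among BET and P-TEFb genes 3 of 15 rose and 6 fell. Hexim1, an inhibitor of the elongation factor P-TEFb whose gene is known to respond to BET inhibitors, fell from 836, 780.3 and 922 to 527, 520.2 and 470.3 (-0.74 ± 0.076, adjusted p = 1.4e-06).

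Markers of other embryonic cell types moved in both directions. The shares of all genes tested, to be set beside these lists, were 16.0% rising and 15.4% falling. Of 17 blood and endothelium genes 6 fell and 0 rose by limma (0 at an unadjusted p under 0.05, 0 by edgeR or DESeq2), with a median of -0.59. Among them were Cd34 at 59.4, 36.03 and 62.6 and then 13.3, 7.83 and 15.8 (-2.02 ± 0.30, adjusted p = 6.8e-05) and Etv2, an early factor of both lineages, at 46.5, 42.2 and 44.6 and then 13.3, 15.7 and 23.7 (-1.33 ± 0.26). Of 9 paraxial mesoderm genes 4 rose, including Foxc1 (1.88 ± 0.39, adjusted p = 0.0013) and Foxc2 (3.38 ± 0.54, adjusted p = 1.4e-04). Of 17 lateral and cardiac genes 3 rose and 2 fell, with Actc1, described above, among the rises. No lateral or cardiac gene fell without day 3 library 1 or 3, without day 4 library 2, or by DESeq2. Of 8 definitive endoderm genes 4 rose and 1 fell. Foxa2 was at 0, 4.97 and 2.12 and then 1.90, 21.3 and 57.5, and its call (adjusted p = 0.028) was lost without any single library except day 3 library 2 and day 4 library 1, at adjusted p of 0.072 to 0.178. Sox17 had no read on day 4, at least 2.95-fold lower, a call lost without any day 3 library except library 2 and without any day 4 library (0.052 to 0.113). Of 7 trophoblast genes 4 rose, with the keratin gene Krt18 at 1156, 1242 and 838 and then 3351, 2636 and 2658 (1.43 ± 0.11, adjusted p = 9.5e-08). The 9 trophoblast markers summed to 1568 to 2084 normalized counts on day 3 and 3879 to 4847 on day 4, and 1 or 2 of them were at 0 in each library. The defining trophoblast genes Elf5 and Plac1 had at most 1.29 normalized counts. Of 9 visceral endoderm genes 3 rose and 1 fell, which became 0 rises without day 3 library 1 and 1 without day 4 library 1 or by DESeq2. The visceral endoderm fall was lost without any single library except day 4 library 3. Of 14 germline genes 1 rose, the receptor gene Kit (0.66 ± 0.11), and 3 fell, including Mael (-0.83 ± 0.13). Among 18 neuroectoderm genes 3 rose and 3 fell, and of 25 Hox genes 3 rose and 1 fell. The neuroectoderm counts, like those of lateral and cardiac genes, were near the shares of all genes, and the Hox counts were below them. The Hox fall (Hoxa3) was lost without library 1 or 3 of either day and by DESeq2, and 1 of the rises (Hoxd8) without day 3 library 1 or 2, without day 4 library 2 or 3, and by DESeq2. Of 14 imprinted genes 4 rose and 6 fell, with H19 (1.70 ± 0.11) and Grb10 (-2.19 ± 0.11) at the ends.

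The Dox step used none of these 6 libraries. It called 7072 of 21384 genes (33.1%). Of 20364 genes tested in both, 4491 passed in both, 4437 in the same direction and 54 in opposite ones, which is 67.2% of the IAA calls and 63.5% of the Dox calls. In the streak list 13 of 17 genes rose with Dox alone, against 16.8% of all genes, while 16.3% of all genes fell. T rose by 4.63 with IAA and 6.92 with Dox, Eomes by 1.71 and 3.61, and Fgf8 by 3.32 and 4.15. The differences between the steps were -2.29 ± 0.95 for T (adjusted p = 0.219), -1.89 ± 0.55 for Eomes (adjusted p = 0.063) and -0.84 ± 0.52 for Fgf8 (adjusted p = 0.454), so none passed. By limma 0 of 17 streak genes passed this test, 3 had an unadjusted p under 0.05 in the lower direction, and 0 passed by edgeR or DESeq2. The wide spread of T, Eomes and Fgf8 between day 4 IAA libraries enters the SEs above. These results therefore do not show that the steps were equal.

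**Figure D5:**
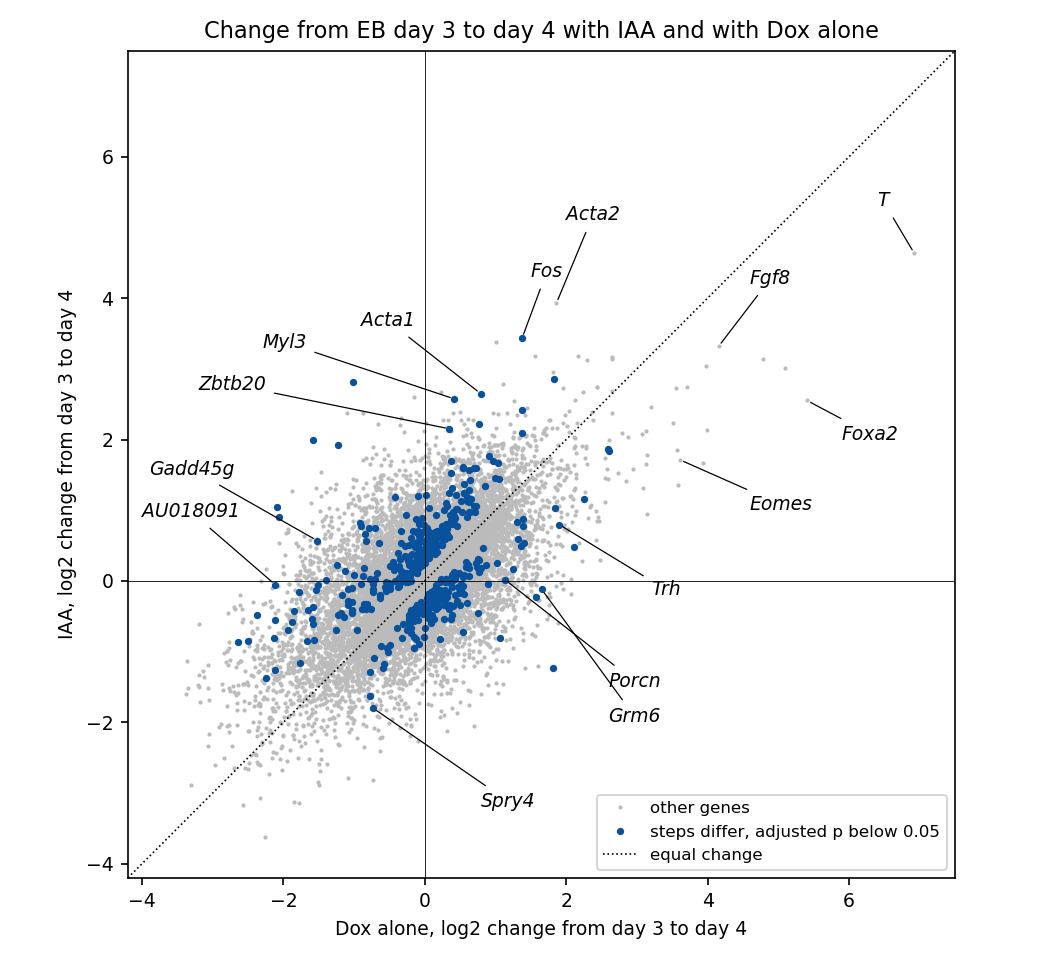
Log2 change from day 3 to day 4 with Dox alone (x axis) and with IAA (y axis), 1 point per gene tested in both, with the 499 genes whose steps differed in blue and a dotted line of equal change. T, Eomes and Fgf8 lie under that line and are not among them. Pearson r across genes is 0.616, and genes are not independent replicates.

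The difference between the steps passed for 499 genes (2.33%), 299 with the higher change under IAA (1.4%) and 200 with the lower (0.935%). The count ran from 196 without day 4 Dox library 1 to 868 without day 4 IAA library 3, and was 251 without day 3 IAA library 1, 267 without day 4 IAA library 2, 211 and 270 without day 3 Dox library 1 and 2, and 265 without day 4 Dox library 2. Among the genes with the higher change were Fos, Acta1, Jun, Gadd45g and Zbtb20. Fos changed by 3.43 with IAA and 1.38 with Dox, a difference of 2.06 ± 0.41 (adjusted p = 0.0075). For Acta1 the changes were 2.65 and 0.79 (1.86 ± 0.30, adjusted p = 0.0012), and for Jun 1.61 and 0.54 (1.07 ± 0.19, adjusted p = 0.0024). Acta2 did not pass (2.07 ± 0.59, adjusted p = 0.06). Gadd45g, a growth arrest gene, stood at 85.2, 127 and 91.3 and then 126, 161 and 160.1 with IAA, and at 160.3, 165 and 154 and then 53.5, 54.8 and 56.7 with Dox. It rose in the first and fell in the second (2.09 ± 0.20, adjusted p = 5.0e-06). Zbtb20, a transcriptional repressor, was at 30.97, 24.8 and 28.7 and then 116, 157 and 116 with IAA, and at 148, 112 and 97.6 and then 146, 125 and 184 with Dox (1.80 ± 0.24, adjusted p = 1.8e-04), so the low group was day 3 with IAA.

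On the lower side, Porcn did not pass with IAA (0.018) and rose by 1.13 with Dox (-1.11 ± 0.16, adjusted p = 4.8e-04). Trh, a peptide hormone gene listed with definitive endoderm, changed by 0.80 and 1.90 (-1.10 ± 0.15, adjusted p = 2.2e-04). FGF and ERK genes split: of 18, 5 had the lower change with IAA, 3 the higher, Fos and Fgfr2 (1.17) among them, and 10 did not pass. Of all genes tested, 0.935% had the lower change and 1.4% the higher. The ERK feedback genes Spry4 (-1.06 ± 0.21, adjusted p = 0.0056) and Dusp6 (-0.49 ± 0.084, adjusted p = 0.0022) had lower changes with IAA, as did Etv4 (-0.86 ± 0.21, adjusted p = 0.029). The call of Etv4 was lost without any 1 of day 3 IAA libraries 1 and 3, day 4 IAA library 2, or libraries 1 and 2 of either Dox day, and by DESeq2. Grm6, a glutamate receptor gene, was at 115, 103 and 149 and then 53.1, 131 and 197 with IAA, and at 153, 153 and 140.1 and then 537, 492 and 392 with Dox (-1.77 ± 0.36, adjusted p = 0.0086). With IAA its days overlapped, and with Dox they did not. DESeq2 lost the calls of Grm6 and Fos for the difference.

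A few naive pluripotency and germline genes differed between the steps. Of 14 naive genes 4 rose and 3 fell with IAA, while 2 rose and 8 fell with Dox alone. Of all genes tested, 16.0% rose and 15.4% fell with IAA, and 16.8% rose and 16.3% fell with Dox. The difference passed for 4 of the 14, each with the higher change under IAA, against 1.4% of all genes, and 10 did not pass. Zfp42, among the 4, lost this call under 9 of 20 alternatives. Dppa3, a naive and germ cell gene, was at 38.7, 50.9 and 46.7 and then 120.4, 73.8 and 58.6 with IAA, and at 84.3, 84.1 and 66.9 and then 30.6, 44.9 and 49.1 with Dox (1.74 ± 0.31, adjusted p = 0.0033). It rose in the first and fell in the second, and in the day 4 IAA libraries it was highest in library 1. Without that library only 2 naive genes rose with IAA, Nanog and Tbx3, so the rise of Dppa3 did not pass. Fbxo15, a known OCT4 target, was at 203, 209.98 and 234 and then 229, 151 and 122 with IAA, and at 294, 259.7 and 254 and then 76.4, 92.2 and 85.6 with Dox (1.25 ± 0.21, adjusted p = 0.002). With IAA its days overlapped, and with Dox they did not.

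Of 14 germline genes 3 fell with IAA and 8 with Dox, while 15.4% and 16.3% of all genes tested fell. By the test of the difference 4 had a higher change under IAA, against 1.4% of all genes, while 10 did not pass. Mael lost this call under 9 of 20 alternatives. Sycp3, a component of the meiotic chromosome axis, was at 148, 160.3 and 180.5 and then 171, 142 and 145 with IAA, and at 218, 186 and 181 and then 84.04, 97.2 and 106 with Dox (0.93 ± 0.17, adjusted p = 0.0037). Ddx4, a germ cell RNA helicase, did not pass with IAA (0.032 ± 0.11) and fell with Dox by 0.78 (0.81 ± 0.13, adjusted p = 0.0015). The Notch ligand gene Dll1 did not pass with IAA (0.14 ± 0.15) and fell with Dox by 1.13 (1.27 ± 0.20, adjusted p = 0.0012). The IAA value turned negative for Ddx4 without day 3 IAA library 2 (-0.054) or day 4 IAA library 1 (-0.0015), and for Dll1 without day 3 IAA library 1 (-0.033). The sum of 14 germline markers was 1592 to 1794 on day 3 and 1537 to 1782 on day 4 with IAA, and its part in these differences was not tested. Elsewhere p53 targets fell in 11 of 14 cases with IAA and 13 with Dox, and stress response genes in 13 of 18 and 15. Hypoxia and glycolysis genes rose in 13 of 18 and 16, while 16.0% and 16.8% of all genes tested rose. Gene by gene, limma's test of the difference passed for 1 p53 target (Pidd1, lower with IAA), 0 stress response genes, and 1 hypoxia gene each way. At an unadjusted p under 0.05, 6 p53 targets and 4 stress response genes had the higher change with IAA, and 0 of either passed in that direction by edgeR or DESeq2.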

How the data were processed

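RNA-seq libraries were made from total RNA extracted with TRIzol, per the labels. The authors aligned reads to mm10 with STAR 2.5.3a, counted them with featureCounts 1.5.2 and divided gene counts by DESeq2 size factors, per the submitters' processing notes. The annotation and strand setting are not given in the sources used here. The deposited signal values are therefore normalized counts with 1 set of size factors over 24 libraries. Whole reads were recovered from 100% of positive values within 1e-06, which gave the depths.

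The test was limma 3.58.1 with trend (R 4.3.3) on log2(value + 1), with Benjamini-Hochberg adjustment over all genes with a mean of at least 1. Each step used its 6 libraries, and their difference all 12. Alternatives included edgeR 4.0.16 and DESeq2 1.42.0 on recovered reads. In simulated counts for the IAA step, limma found 85 of the 100 genes set to a 1.5-fold change and all 100 set to a 2-fold change. For the step difference it found 67 and 93 of 100. The genes set to change all had a mean of at least 50, so recovery of lower genes was not measured. An exact permutation test of 3 against 3 cannot go below 0.1, so none was used.

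Named genes were the 12 largest changes each way (mean of at least 50 in the higher group, no overlap), up to 4 members a list by smallest p, Brd2 and Brd3, and the 8 largest step differences each way. Some genes are not reported here. A further 42 genes were chosen after their values were seen. The members and all 30 lists (456 of 461 genes found) were chosen with earlier results of these data known.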

Additional observations from a re-analysis of the deposited data

Results flagged for a closer look

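The change from day 3 to day 4 differed between cells with IAA and cells with Dox alone, by limma's test of the difference, for 499 genes, of which 44 are named in the text or fall under its rule for named genes. Values are the IAA change minus the Dox change, on the log2(normalized count + 1) scale.

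The change was higher with IAA for these genes. The largest differences were Myl3 2.16, Gadd45g 2.09, Fos 2.06, AU018091 2.06, Acta1 1.86, Zbtb20 1.80, Dppa3 1.74, Gpat2 1.62 and Tnnt1 1.60. Next came Dll1 1.27, Fbxo15 1.25, Fgfr2 1.17, Jun 1.07, Clic5 1.02, Sycp3 0.93, Ddx4 0.81, Krt18 0.79 and Gdf3 0.75. The smallest were Mael 0.73, H19 0.73, Zfp42 0.72, Lefty1 0.66, Utf1 0.54, Tpm1 0.47, Hspg2 0.35 and Lamb1 0.26.

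It was lower with IAA for the others. The largest differences were Grm6 -1.77, Cabp7 -1.63, Magel2 -1.26, Tex15 -1.21, Porcn -1.11, Trh -1.10, Prickle1 -1.09, Adamts15 -1.09 and Spry4 -1.06. The rest were Etv4 -0.86, Axin2 -0.81, Etv1 -0.56, Pidd1 -0.49, Dusp6 -0.49, L1td1 -0.41, Larp7 -0.35, Ccnd1 -0.35 and Pou5f1 -0.31. No cause was tested for any of them.

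Several of these calls depended on the setting, and the number of the 20 alternatives that ended each is in parentheses. They were Axin2 (14), Lamb1 (13), Magel2 (11), Pidd1 (11), Ccnd1 (10), Hspg2 (10), Cabp7 (9), Mael (9) and Zfp42 (9). Fewer alternatives ended the calls of Etv4 (8), Gdf3 (7), L1td1 (7), Larp7 (6), Pou5f1 (6), Clic5 (4), Krt18 (4), Myl3 (3), H19 (2), Prickle1 (2), Fos (1) and Grm6 (1).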

How the results depend on the processing

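Of 165 named genes past the threshold from day 3 to day 4 with IAA, 140 stayed past it under all 16 alternatives and 25 lost it under at least 1. Genes named only for their step difference, such as Dppa3, are not in this count. Of 44 named step differences, 23 stayed under all 20 alternatives and 21 did not. The number of step differences ran from 196 to 868 with 1 library left out, 131 to 459 higher and 65 to 409 lower, and the cause was not tested. The direction reversed, in genes that had not passed, for Dll1 without day 3 IAA library 1 (-0.033), Sall3 without day 3 IAA library 2 (-0.15) or day 4 IAA library 3 (-0.44), Ddx4 without day 3 IAA library 2 (-0.054) or day 4 IAA library 1 (-0.0015), and Fst without day 4 IAA library 3 (-0.23). With 1 library left out these genes ranged from -0.033 to 0.33, -0.44 to 0.78, -0.054 to 0.13 and -0.23 to 2.44. The labels do not say whether replicate numbers pair the samples. Deviations from the group mean correlated between same-numbered libraries at -0.003, 0.011 and 0.032 with IAA and -0.072, 0.001 and -0.047 with Dox. Such values cannot show whether the samples were paired. With a replicate block 6549 genes passed with IAA, 6585 with Dox and 408 for the difference. The counts were 5167 by DESeq2 and 8061 with all 24 libraries in 1 fit. With IAA 6679 genes passed with a mean of at least 1, 6553 with a mean of at least 10 and 6554 with no filter.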
